A study of Mus musculus with 12 samples.

Results

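Ribosome-bound RNA of Slc17a6-expressing neurons was compared between hypothalamus and midbrain in adult mice. The comparison used 6 of the 12 libraries of the study, the 3 labelled hypothalamus IP and the 3 labelled midbrain IP, taken by their titles and numbered replicate 1 to 3 in each region. All libraries came from Slc17a6-EGFP/Rpl10a (JX883) transgenic mice, in which the ribosomal protein Rpl10a carries an EGFP tag. The regions were dissected separately, tagged polysomes were pulled down with anti-EGFP antibodies on beads (IP, translating ribosome affinity purification), and the remaining 6 libraries held total RNA of the same tissues (input). Both regions and both fractions came from mice with this transgene, and no treatment was labelled. JX883 is 1 transgenic line, so the cells profiled are those in which that line expresses the tag. The labels do not say whether a library came from 1 animal or from pooled animals, or whether the numbered replicates came from separate animals, and p-values therefore measure only the spread between these samples.

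Slc17a6 encodes VGLUT2, the transporter that loads glutamate into synaptic vesicles, and marks most excitatory neurons of the hypothalamus, thalamus and brainstem. Tagged ribosomes carry the messages that a cell is translating, so the IP is meant to read out the marked neurons. The input reads out every cell of the dissection. Hypothalamic glutamatergic neurons sit in nuclei that control hormone release, feeding, arousal and memory circuits, whereas those of the midbrain include the visual and auditory layers of the tectum. In bulk RNA of this kind, fewer cells of a type and less RNA per cell cannot be told apart.

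The 6 IP libraries held 48274691 to 55148109 counts assigned to genes, with 17563 to 17974 genes counted at least once. A count of 3 in a library corresponded to 0.0544 to 0.0621 CPM (counts scaled to library size, here with TMM factors), the level used below as the floor for genes with no count. The ribosomal RNA repeat Rn45s took 12.3% and 12.5% of the counts in the replicate 1 libraries of hypothalamus and midbrain and 5.21% to 6.85% in the other 4. Libraries with the same number deviated together (correlations of 0.27 to 0.57 between their deviations from the group means), and the replicate number was used as a block. Within a number, the labels place the regions on different sequencing lanes, so lane and region cannot be told apart. Defining factors separated the region labels in all 6 libraries: Nkx2-1 reached at most 0.0829 CPM in the midbrain, and Pou4f2 had no hypothalamic count. Y-linked transcripts followed the number: Ddx3y, an RNA helicase gene of the Y chromosome, was at 0.019, 24.6 and 19.1 CPM in the hypothalamus and 0, 27.4 and 11.2 CPM in the midbrain. The growth hormone and prolactin genes Gh and Prl, made in the pituitary, were at 20.4 and 36.6 CPM in hypothalamus IP replicate 2 and at 0 to 0.379 CPM in the other 5 IP libraries.

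The gene that the line is named for was abundant in both regions. Slc17a6 (chr7:51622006-51671119, plus strand, GRCm38) was at 3284, 1066 and 1690.2 CPM in the hypothalamus and 3735, 1808 and 2344 CPM in the midbrain. The regions overlapped, but in each numbered pair the midbrain library was the higher one. The block fit gave a log2 fold change (hypothalamus over midbrain) of -0.47, SE 0.10, adjusted p = 0.019. The difference was not called without the block (adjusted p = 0.794), without replicate 2 (adjusted p = 0.142) or without replicate 3 (adjusted p = 0.066). In the inputs Slc17a6 was lower in the hypothalamus, with a log2 fold change of -1.13 (adjusted p = 4.47e-05). The native Rpl10a gene, from which the tagged transgene copy was not distinguished, was at 3.37, 5.36 and 6.14 CPM in the hypothalamus and 4.38, 5.92 and 5.74 CPM in the midbrain (adjusted p = 0.826).

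Of 15531 genes tested with edgeR's quasi-likelihood F test at a Benjamini-Hochberg adjusted p under 0.05, 647 (4.17%) had more counts in the hypothalamus IP and 1085 (6.99%) fewer, 11.2% in all. The median log2 fold change over all genes tested was -0.01. The largest differences lay more often on the hypothalamic side, with 125 genes higher and 68 lower by more than 8-fold, while 889 of the 1732 called genes differed by less than 2-fold. Every called gene differed in the same direction in all 3 numbered pairs. The calls came from a fit blocked by these same pairs, so this agreement is no separate evidence. In 547 of the 647 higher genes and 675 of the 1085 lower genes all 3 libraries of one region lay above all 3 of the other, against 10.3% and 9.43% of all genes tested, 19.7% in both directions. Without the replicate block 112 genes (0.721%) were higher and 84 (0.541%) lower, and all 196 of them were also called with it. Leaving out replicate 1, 2 or 3 from both regions gave 380, 358 and 491 higher genes and 884, 565 and 723 lower ones. The gene groups below are described with the block. Of the 818 genes on the 39 lists that the files held, 727 were tested and 91 had too few counts. The strand setting of the counting is given in no source used here, and an annotated gene on the opposite strand overlaps 45 of the 133 tested genes whose difference is described here or in the closing section. Nkx2-1, Tbx3, Nr5a1, Six6, Hmx2, Foxb1, Foxb2, Lhx5, Six3, Tfap2d, En2, Pmch and Grp are among them, and the reads of such a pair cannot be told apart. An annotated gene on the same strand overlaps 20 of the 133, including Slc17a6, Slc17a7, Bnc2, Six3 and Gata3. Their reads may include reads of those genes under any strand setting. In all, 58 of the 133 have an overlap on either strand.

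**Figure D1:**
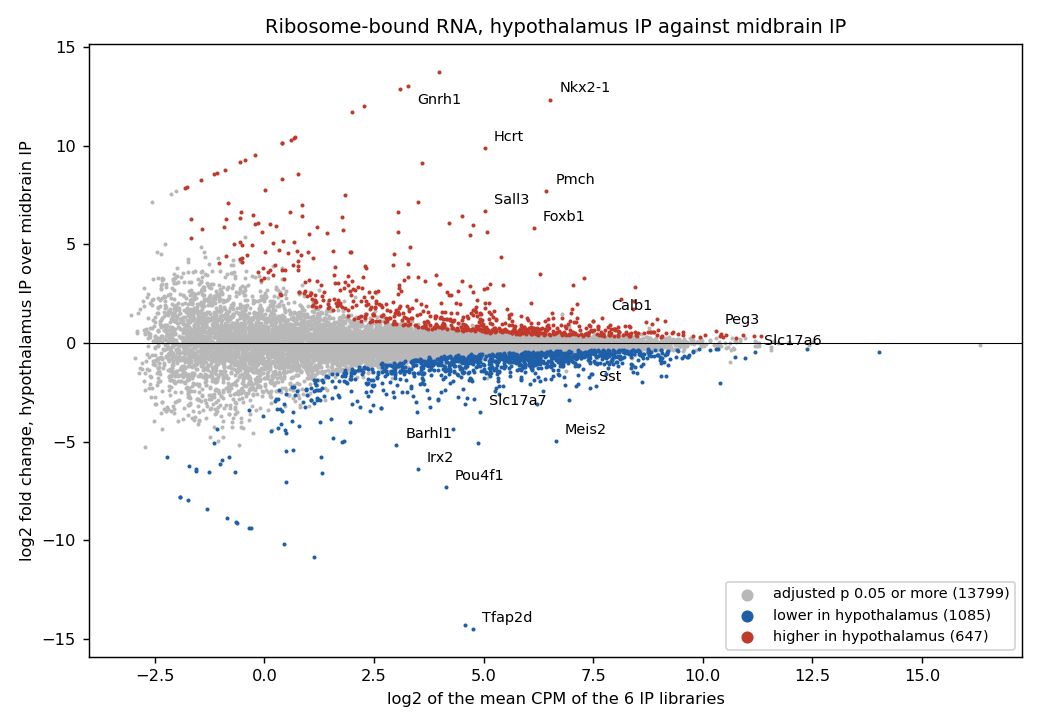
Log2 fold change of hypothalamus IP over midbrain IP (y axis) against the mean log2 CPM (x axis) for the 15531 genes tested; each point is a gene, coloured where the adjusted p was under 0.05. The points far above 0 include Gnrh1, Nkx2-1 and Hcrt, and those far below 0 include Tfap2d.

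Transcription factors of the ventromedial, arcuate and tuberal hypothalamus had the largest median difference of the gene lists examined. Of 16 such genes 14 were tested, 13 were higher in the hypothalamus and none lower, with a median log2 fold change of 8.57, or 5.63 where genes with no midbrain count were set to their bound. Rax and Prdm12 were not tested for low counts. Nkx2-1 (chr12:56531958-56536908), the homeobox gene that specifies the ventral hypothalamus in the embryo, was at 244, 196 and 111 CPM in the hypothalamus and 0.0201, 0 and 0.0829 CPM in the midbrain. Its groups did not overlap, and the log2 fold change was 12.33, SE 0.38, adjusted p = 7.14e-07; it was 14.16 without replicate 3, whose midbrain library held most of the few midbrain counts. Fezf1, a zinc finger factor of ventromedial neurons, was at 17.6, 23.8 and 10.1 CPM in the hypothalamus and had no count in any midbrain library, at least 289-fold higher (adjusted p = 4.70e-05). Tbx3, a T-box factor of arcuate neurons, was at 12.3, 10.2 and 1.33 CPM against no count, at least 134-fold higher (adjusted p = 2.49e-04), and its replicate 3 value was the lowest.

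Factors with smaller counts showed the same split. The homeobox genes Hmx2 and Six6 were at least 54.9-fold and 24.8-fold higher than the midbrain floor (adjusted p = 0.00173 and 0.0103). Bsx, a homeobox factor of arcuate feeding neurons, was at 6.03, 9.69 and 5.78 CPM in the hypothalamus and 0, 0 and 0.124 CPM in the midbrain (log2 fold change 7.51, SE 0.89, adjusted p = 9.84e-04). Its midbrain counts were all in replicate 3, without which the fitted value was 11.72, so that value is no measure of size. Insm2, a zinc finger gene, was at 15.4, 18.4 and 15.3 CPM in the hypothalamus and 0.161, 0.0558 and 0.29 CPM in the midbrain (log2 fold change 6.64, SE 0.47, adjusted p = 6.02e-05). Nr5a1, which encodes the ventromedial factor SF-1, was at 4.53, 3 and 0.418 CPM and had no midbrain count, at least 44.6-fold higher (adjusted p = 0.00335). The hypothalamic values of Nr5a1 spread widely, and its call was lost without the block (adjusted p = 0.0589). Nr0b1, a partner of SF-1, was the tested member that did not pass, at 1.19, 0.768 and 1.78 CPM in the hypothalamus and 0.14, 0.0931 and 0.414 CPM in the midbrain (adjusted p = 0.081), although DESeq2 called it (log2 fold change 2.72, adjusted p = 0.0175). Of the 13 called members 8 passed without the block.

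**Figure D2:**
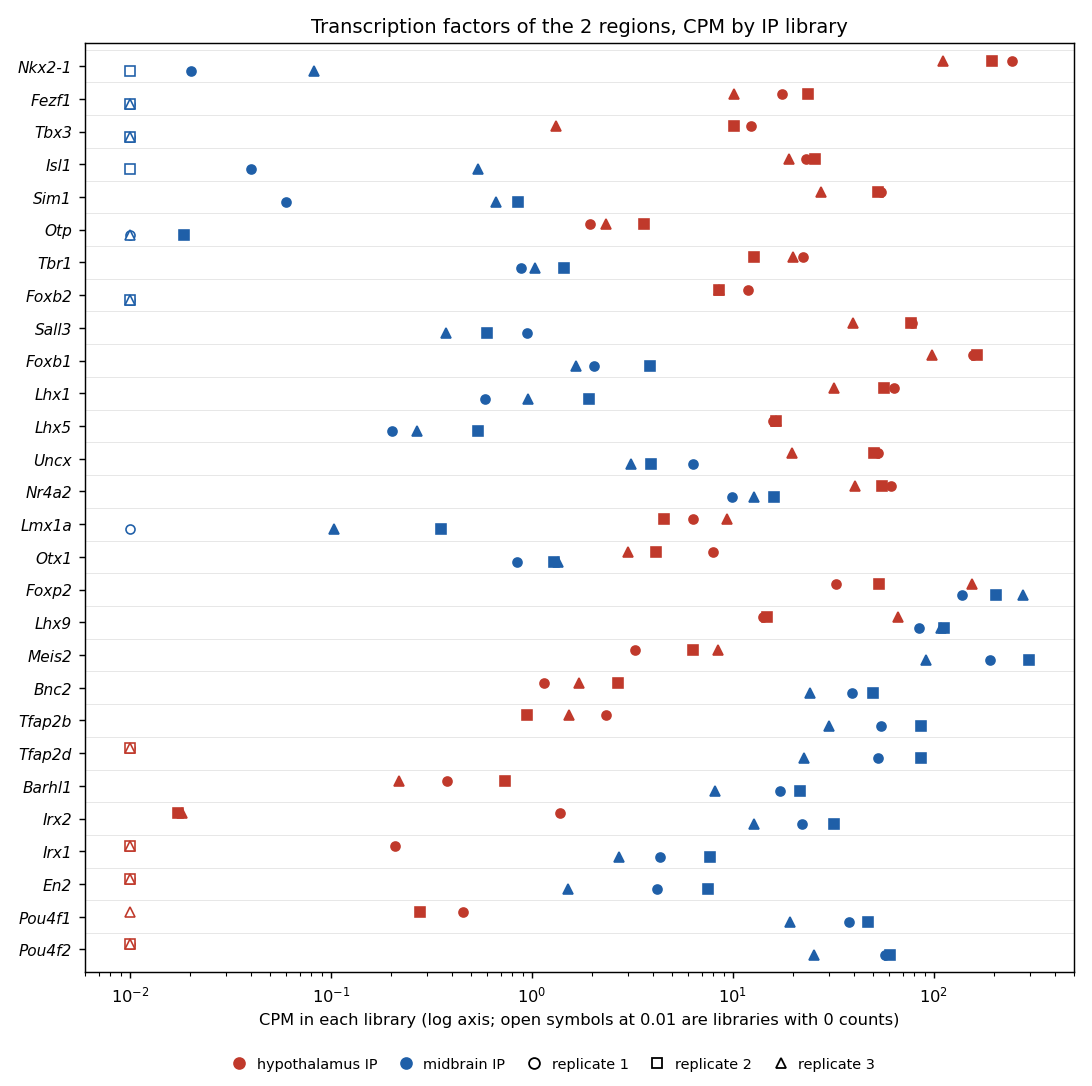
CPM in each IP library (x axis, log scale) for transcription factor genes of the groups described (y axis); colours mark the region, marker shapes the replicate, and open symbols at 0.01 are libraries with 0 counts. Nkx2-1 lay at 111 to 244 CPM in the hypothalamus and Tfap2d at 22.6 to 86.1 CPM in the midbrain, each at or near 0 in the other region.

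Mammillary and posterior hypothalamic factors also differed, in both directions. All 13 tested members of this list of 14 passed, 10 higher and 3 lower, with a median log2 fold change of 3.15. Dbx1 was not tested. Foxb1, a forkhead gene needed for mammillary body development, was at 156, 163 and 97.4 CPM in the hypothalamus and 2.05, 3.85 and 1.66 CPM in the midbrain, with no overlap (log2 fold change 5.83, SE 0.20, adjusted p = 7.14e-07). Its relative Foxb2 was at 11.9, 8.53 and 8.56 CPM with no midbrain count, at least 163-fold higher (adjusted p = 1.31e-04).

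The LIM homeobox pair Lhx1 and Lhx5, which act in mammillary neuron differentiation, followed the same pattern. Lhx1 was at 63.1, 56.4 and 31.9 CPM in the hypothalamus and 0.582, 1.92 and 0.953 CPM in the midbrain (log2 fold change 5.49, SE 0.36, adjusted p = 4.04e-05). Lhx5 was at 15.8, 16.4 and 16.4 CPM in the hypothalamus and 0.201, 0.54 and 0.269 CPM in the midbrain (log2 fold change 5.63, SE 0.37, adjusted p = 4.04e-05). Sall3, a spalt-type zinc finger factor, was at 77.7, 76.6 and 39.8 CPM in the hypothalamus and 0.943, 0.596 and 0.373 CPM in the midbrain (log2 fold change 6.68, SE 0.22, adjusted p = 7.14e-07). The hypothalamic and midbrain libraries of these factors were separated without overlap. Lhx1os, a noncoding transcript next to Lhx1, was at 78.3, 49.1 and 32.2 CPM in the hypothalamus and 0.943, 0.465 and 1.02 CPM in the midbrain (log2 fold change 5.995, SE 0.34, adjusted p = 1.79e-05).

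A smaller difference in the list came from Uncx, a homeobox factor expressed in both dissections, which was at 52.8, 50.6 and 19.7 CPM in the hypothalamus and 6.3, 3.91 and 3.11 CPM in the midbrain (log2 fold change 3.15, SE 0.23, adjusted p = 7.89e-05). The 3 lower members were Barhl1, Lhx9 and Foxp2, the last being a forkhead gene at 32.5, 53.2 and 155 CPM in the hypothalamus and 138, 204 and 277 CPM in the midbrain (log2 fold change -1.62, SE 0.22, adjusted p = 0.00179). Lhx9 was at 14.1, 14.8 and 66.2 CPM in the hypothalamus and 84.1, 112 and 108 CPM in the midbrain (log2 fold change -2.08, SE 0.42, adjusted p = 0.0242). For Foxp2 and Lhx9 the hypothalamic replicate 3 library was far above the other hypothalamic libraries, and neither passed without the block (adjusted p = 0.337 and 0.257). Lhx9 was also not called without replicate 1 (adjusted p = 0.352) or replicate 2 (adjusted p = 0.19). Without the block 8 members were higher and 1, Barhl1, was lower.

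Paraventricular and anterior factors were called in 8 of 10 tested members, 7 higher and 1 lower, with a median log2 fold change of 4.15 (3.66 at the bound). Sim1, required for the neurosecretory neurons of the paraventricular nucleus, was at 54.3, 52.8 and 27.5 CPM in the hypothalamus and 0.0602, 0.856 and 0.663 CPM in the midbrain (log2 fold change 6.44, SE 0.58, adjusted p = 4.33e-04). Otp, a homeobox partner in the same neurons, held 440 counts over the 3 hypothalamus libraries and 1 count in the midbrain, a ratio of 405 (95% counting interval 72.2 to 16018). Tbr1, a T-box factor also used in cortex, was at 22.3, 12.8 and 19.9 CPM in the hypothalamus and 0.883, 1.45 and 1.04 CPM in the midbrain (log2 fold change 4.004, SE 0.35, adjusted p = 1.84e-04). These anterior factors were detected mainly on the hypothalamic side. Peg3, an imprinted zinc finger gene, was abundant in both regions at 1470.0, 1774 and 1308 CPM in the hypothalamus and 877, 1181 and 956 CPM in the midbrain (log2 fold change 0.59, SE 0.08, adjusted p = 0.00217; adjusted p = 0.174 without the block). The lower member was the POU factor Pou3f2 (log2 fold change -0.79, SE 0.19, adjusted p = 0.0275), which was not called without replicate 1 (adjusted p = 0.0871), without replicate 2 (adjusted p = 0.176) or without the block (adjusted p = 0.213). In all, 3 members were higher and none lower without the block.

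To show the regulatory sequence next to these genes, the 250 bases upstream of the annotated start were read from RefSeq (GRCm38.p6) for 2 hypothalamic peptide genes and 2 homeobox genes, 1 on each side of the comparison. Capitals mark 3 motifs searched on both strands: TATAAA, the core of the TATA box that positions transcription starts; TAATTA, a palindromic core bound by many homeodomain factors; and GCCNNNGGC, a palindromic core bound by TFAP2 factors, which belong to the midbrain side below. Hcrt lies at chr11:100762932-100763181 on the minus strand, Pmch at chr10:88090822-88091071, Uncx at chr5:139543648-139543897 and Irx2 at chr13:72628570-72628819, all 3 on the plus strand. For Uncx the annotations disagree. GENCODE places its start at 139543494, so the window upstream of the RefSeq start lies inside the GENCODE gene. In each line the sequence runs 5′ to 3′ towards the start.
Hcrt: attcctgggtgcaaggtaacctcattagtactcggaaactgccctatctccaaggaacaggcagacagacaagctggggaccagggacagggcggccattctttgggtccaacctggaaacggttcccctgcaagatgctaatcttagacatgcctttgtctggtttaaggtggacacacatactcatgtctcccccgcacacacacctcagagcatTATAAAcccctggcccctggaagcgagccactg
Pmch: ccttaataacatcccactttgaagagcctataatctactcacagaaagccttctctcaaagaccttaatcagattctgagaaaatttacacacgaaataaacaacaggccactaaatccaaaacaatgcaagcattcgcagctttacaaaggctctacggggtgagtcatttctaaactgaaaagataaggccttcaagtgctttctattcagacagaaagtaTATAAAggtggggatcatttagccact
Uncx: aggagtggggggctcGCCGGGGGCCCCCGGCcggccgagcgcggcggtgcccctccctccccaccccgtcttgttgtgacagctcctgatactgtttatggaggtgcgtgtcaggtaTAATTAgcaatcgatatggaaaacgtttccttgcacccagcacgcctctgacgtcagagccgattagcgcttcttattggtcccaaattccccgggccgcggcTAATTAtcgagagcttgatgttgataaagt
Irx2: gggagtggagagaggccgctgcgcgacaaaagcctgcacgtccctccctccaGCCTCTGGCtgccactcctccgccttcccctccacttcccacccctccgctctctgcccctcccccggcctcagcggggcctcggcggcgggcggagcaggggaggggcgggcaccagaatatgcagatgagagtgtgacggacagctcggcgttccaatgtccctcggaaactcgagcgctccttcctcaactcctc
Both peptide genes held TATAAA close to the start, 33 bases before it in Hcrt and 27 bases before it in Pmch. Uncx held TAATTA at 133 and 30 bases before its RefSeq start and a pair of overlapping GCCNNNGGC matches at 235 and 228 bases. Irx2 held GCCNNNGGC at 198 bases. A promoter was found for 11032 of the 15531 genes tested. Of all these promoters 6.41% held TATAAA, against 9.9% of those of higher genes and 6.34% of those of lower genes. TAATTA stood in 2.33% of all promoters, 3.51% of those of higher genes and 2.2% of those of lower genes. GCCNNNGGC stood in 20.7%, 20.6% and 22.3%. These matches describe the letters in these windows and were not tied to binding of any factor.

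Hypothalamic neuropeptides were higher in 12 of 20 tested members and lower in 1, with a median log2 fold change of 2.93. Hcrt (chr11:100761069-100762931), the orexin precursor of wake-promoting lateral hypothalamic neurons, was at 99.7, 54.8 and 41.6 CPM in the hypothalamus and 0.0602, 0.0372 and 0.104 CPM in the midbrain. Its lowest hypothalamic library lay far above the midbrain ones (log2 fold change 9.86, SE 0.33, adjusted p = 7.14e-07). Pmch, the melanin-concentrating hormone gene of the neighbouring neurons, was at 261, 154 and 99.7 CPM in the hypothalamus and 0.181, 0.54 and 1.8 CPM in the midbrain, again without overlap (log2 fold change 7.67, SE 0.83, adjusted p = 0.00451). It did not pass without replicate 2 (adjusted p = 0.297) or with no filter on low counts (adjusted p = 0.133), and Parpbp overlaps it on the opposite strand. Without replicate 3 its log2 fold change was 9.09. Gnrh1 (chr14:67745181-67749439), the gonadotropin-releasing hormone gene, was at 23.7, 20.4 and 14 CPM in the hypothalamus and had no midbrain count, at least 326-fold higher (adjusted p = 3.58e-05). Trh, which encodes the releasing hormone for thyrotropin, was at 41.8, 17.9 and 12.3 CPM in the hypothalamus and 0, 0.112 and 0 CPM in the midbrain (log2 fold change 9.11, SE 0.65, adjusted p = 6.43e-05). Midbrain counts of Trh were in replicate 2 alone, and without it the fitted value was 13.45, again no measure of size.

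The neurohypophysial hormones were counted at low levels in the IP. Avp and Oxt averaged 1.73 and 2.94 CPM in the hypothalamus IP and 36.04 and 46.9 CPM in the hypothalamus input. Their input log2 fold changes were 8.76 and 9.13. The part of unmarked cells in their IP counts was not tested. Avp, the vasopressin gene, was at 2.1, 2.74 and 0.345 CPM with no midbrain count, at least 29.1-fold higher (adjusted p = 0.00885). Oxt, the oxytocin gene, was at 3.43, 3.02 and 2.38 CPM in the hypothalamus and 0.12, 0 and 0 CPM in the midbrain (log2 fold change 6.61, SE 1.08, adjusted p = 0.00475). Its midbrain counts were in replicate 1 alone, without which the fitted value was 10.18. Neither passed without the block (adjusted p = 0.0638 and 0.0557). Crh, the corticotropin-releasing hormone gene, was the lower member, at 0.436, 0.82 and 0.291 CPM in the hypothalamus and 4.38, 2.7 and 3.89 CPM in the midbrain (log2 fold change -2.91, SE 0.60, adjusted p = 0.015). It was not called without replicate 1 (adjusted p = 0.0762), replicate 3 (adjusted p = 0.0659) or the block (adjusted p = 0.0575). Gal, the galanin gene, was at 9.97, 4.82 and 5.29 CPM in the hypothalamus and 2.73, 1.79 and 4.77 CPM in the midbrain and did not pass (adjusted p = 0.1), but was called without replicate 3 (log2 fold change 1.65, adjusted p = 0.0362) and by DESeq2 (log2 fold change 1.15, adjusted p = 0.0366). Without the block 7 members were higher and none lower.

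Further peptides of the same list, named after their values were seen, added arcuate genes to the higher side. Npy, the feeding-promoting neuropeptide Y gene, was at 30.4, 18.9 and 8.96 CPM in the hypothalamus and 0.763, 0.726 and 0.373 CPM in the midbrain (log2 fold change 4.88, SE 0.29, adjusted p = 2.39e-05). Cartpt, which encodes the CART peptides, was at 443, 165 and 99.3 CPM in the hypothalamus and 42, 22.2 and 17.1 CPM in the midbrain (log2 fold change 2.95, SE 0.17, adjusted p = 1.79e-05; adjusted p = 0.0554 without the block). Tac2, the neurokinin B gene, was at 113, 55.5 and 31.2 CPM in the hypothalamus and 1.26, 1.86 and 0.684 CPM in the midbrain (log2 fold change 5.62, SE 0.31, adjusted p = 1.66e-05). In each of these genes all hypothalamic libraries were above all midbrain libraries. Pomc, the melanocortin precursor gene of arcuate and pituitary cells, was at 2.96, 9.41 and 2.11 CPM in the hypothalamus and 1.14, 2.44 and 2.63 CPM in the midbrain and did not pass (adjusted p = 0.246); its highest library was the one that held Gh and Prl counts, and the part of those in its value was not tested.

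**Figure D3:**
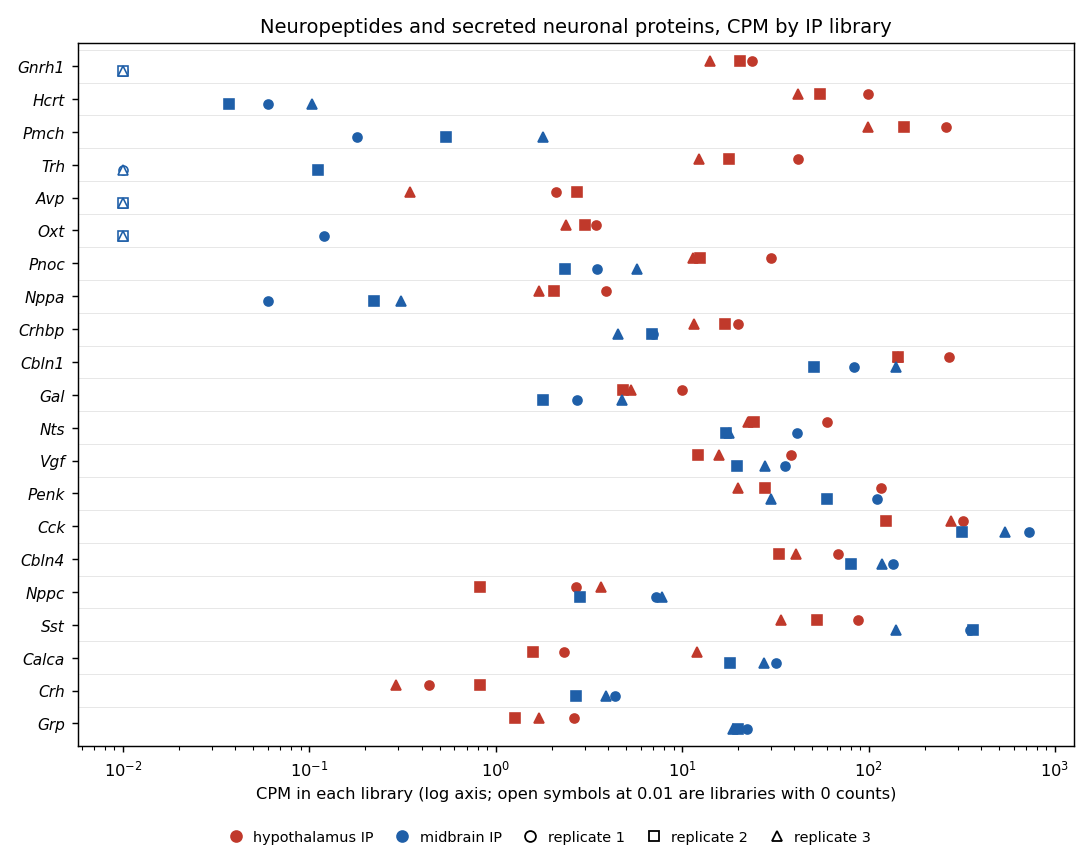
CPM in each IP library (x axis, log scale) for neuropeptide and secreted neuronal protein genes (y axis); colours mark the region, marker shapes the replicate, and open symbols at 0.01 are libraries with 0 counts. Hcrt lay at 41.6 to 99.7 CPM in the hypothalamus against at most 0.104 CPM in the midbrain, whereas Grp lay at 18.8 to 22.4 CPM in the midbrain against at most 2.64 CPM in the hypothalamus.

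A list of other neuropeptides and secreted proteins leaned the other way in the IP, with 4 of 21 tested members higher and 8 lower (median -1.08). In the inputs 6 of its 23 tested members were higher and 4 lower. Sst, the somatostatin gene, was at 87.6, 52.9 and 33.7 CPM in the hypothalamus and 350.2, 364 and 141 CPM in the midbrain (log2 fold change -2.28, SE 0.16, adjusted p = 5.86e-05). In the inputs Sst was higher in the hypothalamus (log2 fold change 0.71, adjusted p = 0.0198). The test of the difference between the IP and input values of Sst did not pass (adjusted p = 0.0644). Cck, the cholecystokinin gene, was at 319.9, 125 and 278 CPM in the hypothalamus and 727, 319 and 538 CPM in the midbrain (log2 fold change -1.16, SE 0.10, adjusted p = 1.85e-04). The regions of Sst did not overlap and those of Cck did. Grp, which encodes gastrin-releasing peptide, was at 2.64, 1.27 and 1.71 CPM in the hypothalamus and 22.4, 19.8 and 18.8 CPM in the midbrain (log2 fold change -3.49, SE 0.27, adjusted p = 9.91e-05). Cbln4, a secreted synapse organizer, was at 68.6, 33.1 and 40.7 CPM in the hypothalamus and 135, 80.9 and 118 CPM in the midbrain (log2 fold change -1.27, SE 0.14, adjusted p = 6.36e-04). Higher members included Pnoc, the nociceptin gene, at 30, 12.4 and 11.5 CPM in the hypothalamus and 3.51, 2.36 and 5.74 CPM in the midbrain (log2 fold change 2.17, SE 0.38, adjusted p = 0.00718), and Crhbp, whose product binds corticotropin-releasing hormone, at 19.9, 16.9 and 11.6 CPM in the hypothalamus and 6.94, 6.87 and 4.52 CPM in the midbrain (log2 fold change 1.39, SE 0.22, adjusted p = 0.00369). Higher members numbered 2, 2 and 4 without replicates 1, 2 and 3. Without the block only Grp passed; Sst, Cck, Cbln4, Pnoc and Crhbp gave adjusted p = 0.0589, 0.266, 0.126, 0.0822 and 0.0798.

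Factors of the tectum and midbrain were lower in the hypothalamus in 19 of 26 tested members and higher in 1, with a median log2 fold change of -2.78. Tfap2c, Tfap2e and Pax3 were not tested. Tfap2d (chr1:19103022-19166346), a TFAP2 factor of the developing tectum, had no hypothalamic count and was at 52.7, 86.1 and 22.6 CPM in the midbrain, at least 986-fold lower in the hypothalamus (adjusted p = 7.54e-06). Pou4f2 (chr8:78433010-78436645), the POU factor also known as Brn3b, had no hypothalamic count and was at 57.4, 60.5 and 25.3 CPM, at least 875-fold lower (adjusted p = 8.32e-06). Its relative Pou4f1 was at 0.455, 0.279 and 0 CPM in the hypothalamus and 37.9, 47.3 and 19.3 CPM in the midbrain (log2 fold change -7.29, SE 0.49, adjusted p = 4.70e-05). These factors came from the midbrain libraries almost alone, and in each of them midbrain replicate 3 was the lowest of that region. Tfap2b was at 2.35, 0.942 and 1.53 CPM in the hypothalamus and 54.5, 86.2 and 30 CPM in the midbrain (log2 fold change -5.06, SE 0.40, adjusted p = 1.22e-04).

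The engrailed gene En2, which patterns the midbrain and hindbrain border, was at 4.17, 7.52 and 1.51 CPM in the midbrain with no hypothalamic count, at least 80.7-fold lower (adjusted p = 9.47e-04). Barhl1, a homeobox factor of tectal and cerebellar lineages, was at 0.379, 0.733 and 0.218 CPM in the hypothalamus and 17.2, 21.6 and 8.18 CPM in the midbrain (log2 fold change -5.18, SE 0.31, adjusted p = 2.42e-05). Meis2, a TALE homeobox factor, was at 3.28, 6.34 and 8.43 CPM in the hypothalamus and 191, 299 and 91.6 CPM in the midbrain (log2 fold change -4.95, SE 0.52, adjusted p = 0.00267). The Meis2 groups were far apart in all libraries, but its call was lost without replicate 1 (adjusted p = 0.108), without replicate 2 (adjusted p = 0.154) and with no filter on low counts (adjusted p = 0.124). Irx2, the iroquois factor whose promoter is printed above, was at 1.38, 0.0175 and 0.0182 CPM in the hypothalamus and 22.1, 31.8 and 12.7 CPM in the midbrain (log2 fold change -6.37, SE 1.09, adjusted p = 0.0169), and did not pass without replicate 3 (adjusted p = 0.147) or the block (adjusted p = 0.0952). Its log2 fold change was -10.10 without replicate 1, whose hypothalamus library was the highest of that region.

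Other called members were expressed in both dissections at smaller ratios. Ebf1, an early B-cell factor gene also used by neurons, was at 12.4, 12.2 and 9.74 CPM in the hypothalamus and 69.8, 85 and 54 CPM in the midbrain (log2 fold change -2.59, SE 0.15, adjusted p = 2.22e-05). Barhl2, a relative of Barhl1, was at 10.8, 13.2 and 15.9 CPM in the hypothalamus and 74.8, 70.8 and 47.1 CPM in the midbrain (log2 fold change -2.26, SE 0.23, adjusted p = 4.51e-04). The male-abnormal 21 family genes Mab21l1 and Mab21l2 had log2 fold changes of -2.85 and -2.71 (adjusted p = 7.71e-04 and 2.43e-04). Otx1, a homeobox factor of forebrain and midbrain, was the higher member at 7.92, 4.15 and 3.02 CPM in the hypothalamus and 0.843, 1.28 and 1.35 CPM in the midbrain (log2 fold change 2.01, SE 0.50, adjusted p = 0.033), and was not called without replicate 1 (adjusted p = 0.194), replicate 2 (adjusted p = 0.0817) or the block (adjusted p = 0.0934). Pax7 was at 0.626, 0.209 and 0.708 CPM in the hypothalamus and 0.743, 1.94 and 1.37 CPM in the midbrain and did not pass (adjusted p = 0.372). Without the block 12 members were lower and none higher.

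Other genes among the 15 with the largest difference on the midbrain side belonged to no factor group above. Bnc2, a zinc finger gene, was at 1.16, 2.67 and 1.73 CPM in the hypothalamus and 39.3, 50.1 and 24.2 CPM in the midbrain (log2 fold change -4.36, SE 0.28, adjusted p = 3.40e-05). Pou3f1, a POU factor also known as Oct6, was at 1.76, 0.995 and 0.236 CPM in the hypothalamus and 10.3, 14.8 and 3.96 CPM in the midbrain (log2 fold change -3.45, SE 0.40, adjusted p = 9.42e-04). Fgf7, a growth factor gene that Fam227b overlaps on the opposite strand, was at 1.57, 0 and 0.0727 CPM in the hypothalamus and 7.75, 4.24 and 4.23 CPM in the midbrain (log2 fold change -4.80, SE 1.03, adjusted p = 0.0175). The libraries of the regions were apart in all 3 genes. Serpina3g, a serine protease inhibitor gene of a family with near-identical copies, whose reads are uncertain for that reason, was at 0.0948, 0.436 and 0.145 CPM in the hypothalamus and 10.1, 6.57 and 3.73 CPM in the midbrain (log2 fold change -4.95, SE 0.60, adjusted p = 0.00111), and Eps8l2, an actin regulator gene, at 0.114, 0.401 and 0.981 CPM in the hypothalamus and 5.9, 3.29 and 12.5 CPM in the midbrain (log2 fold change -3.98, SE 0.54, adjusted p = 0.00189). Pou3f1, Fgf7 and Eps8l2 were not called without the block (adjusted p = 0.0966, 0.348 and 0.0764), and Fgf7 was not called without replicate 3 (adjusted p = 0.0506). Without replicate 1 the log2 fold change of Fgf7 was -6.96.

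The list of midbrain floor and dopaminergic factors did not follow the tectal one. Of 6 tested members 4, including Isl1, were higher in the hypothalamus and none lower. Nr4a2, a nuclear receptor needed by dopaminergic neurons, was at 61.2, 55.4 and 40.3 CPM in the hypothalamus and 9.93, 16 and 12.7 CPM in the midbrain (log2 fold change 2.02, SE 0.21, adjusted p = 4.92e-04). Isl1, a LIM homeobox gene, was at 23.1, 25.6 and 19.1 CPM in the hypothalamus and 0.0401, 0 and 0.539 CPM in the midbrain (log2 fold change 7.15, SE 0.83, adjusted p = 0.00154). Lmx1a, another LIM homeobox gene, was at 6.31, 4.54 and 9.41 CPM in the hypothalamus and 0, 0.354 and 0.104 CPM in the midbrain (log2 fold change 5.70, SE 0.87, adjusted p = 0.00339) and Foxa1, a forkhead gene, at 2.84, 4.26 and 2.33 CPM in the hypothalamus and 0.522, 0.168 and 0.124 CPM in the midbrain (log2 fold change 3.72, SE 0.69, adjusted p = 0.00918). In all 4 genes the hypothalamic libraries lay above the midbrain ones, and Foxa1 did not pass without replicate 2 (adjusted p = 0.0672) or the block (adjusted p = 0.0602). Isl1 was not called with no filter on low counts (adjusted p = 0.0822). It averaged 36.8 CPM in the hypothalamus input and 2.19 CPM in the midbrain input, so these tissues do not bear out its place on this list. The input log2 fold change was 4.13 for Isl1, 1.29 for Lmx1a, 0.95 for Foxa1 and 0.39 for Nr4a2. The log2 fold change of Isl1 was 10.13 without replicate 3 and that of Lmx1a 7.34 without replicate 2, the replicates with the highest midbrain value of each. Of the 4 called members 3 passed without the block. The other 6 members, among them the dopaminergic factor Pitx3, were not tested for low counts.

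Factors of GABAergic lineages split, with 3 of 12 tested members higher, 2 lower and 7 not passing. Dlx5, a homeobox factor of forebrain GABAergic neurons, held 328 counts in the hypothalamus and 1 in the midbrain, a ratio of 302 (95% counting interval 53.8 to 11949). Six3, a homeobox factor of the anterior brain, was at 26.8, 20.3 and 14.8 CPM in the hypothalamus and 0.863, 3.26 and 2.4 CPM in the midbrain (log2 fold change 3.32, SE 0.45, adjusted p = 0.00187). Gata3, a factor of midbrain GABAergic neurons, was at 0.019, 0.593 and 0.0363 CPM in the hypothalamus and 1.85, 3.7 and 1.2 CPM in the midbrain (log2 fold change -4.31, SE 0.93, adjusted p = 0.0182) and was not called without replicate 1 (adjusted p = 0.057) or the block (adjusted p = 0.274); its log2 fold change was -5.63 without replicate 2. Dlx5 and Six3 also passed without the block and without each replicate pair. The 2 lower calls became 0, 1 and 2 without replicates 1, 2 and 3, and none was left without the block. Means in the hypothalamus IP and input were 2.02 and 21.2 CPM for Dlx5 and 20.6 and 86.6 CPM for Six3. Gata3 averaged 2.25 and 27.5 CPM in the midbrain IP and input. The input log2 fold changes of Dlx5, Six3 and Gata3 were 4.10, 1.16 and -5.06. The part of unmarked cells in their IP counts was not tested.

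Thalamic genes, included because the thalamus borders both dissections, were lower in the hypothalamus in 12 of 14 tested members and higher in 1, with a median log2 fold change of -1.97. Their summed level was 483 to 2493 CPM in the hypothalamus and 2871 to 5296 CPM in the midbrain. Slc17a7, which encodes the transporter VGLUT1, was at 4.23, 3.18 and 5.14 CPM in the hypothalamus and 81.9, 15.9 and 70.7 CPM in the midbrain (log2 fold change -3.48, SE 0.34, adjusted p = 4.02e-04). Prkcd, a protein kinase C gene abundant in thalamic relay neurons, was at 6.35, 24.9 and 84 CPM in the hypothalamus and 124, 129.7 and 367 CPM in the midbrain (log2 fold change -2.88, SE 0.43, adjusted p = 0.0102). Tnnt1, a troponin gene also used as a thalamic marker, was at 4.64, 10.8 and 46.6 CPM in the hypothalamus and 85.8, 88.7 and 211 CPM in the midbrain (log2 fold change -3.11, SE 0.33, adjusted p = 9.71e-04). For Prkcd and Tnnt1 the replicate 3 libraries were the highest of each region. Cd44, a hyaluronan receptor gene, was the higher member at 46.1, 18.2 and 18.9 CPM in the hypothalamus and 2.05, 1.32 and 4.62 CPM in the midbrain (log2 fold change 3.42, SE 0.43, adjusted p = 0.00144). Lower calls numbered 9, 5 and 12 without replicates 1, 2 and 3, and without the block Slc17a7 was lower and Cd44 higher. Prkcd and Tnnt1 were not called without replicate 2 (adjusted p = 0.206 and 0.125) or the block (adjusted p = 0.268 and 0.201). Several channel and receptor groups below were lower in the same direction, and the part of thalamic neurons in those results was not tested.

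Of 29 tested receptors for feeding and reproductive signals 4 were higher and 4 lower, 27.6% against 11.2% of all genes tested. None passed without the block. Leaving out replicate 1, 2 or 3 gave 1, 4 and 3 higher and 3, 0 and 1 lower members. Prokr2, the prokineticin receptor gene of the reproductive axis, was at 66.6, 26.2 and 42.4 CPM in the hypothalamus and 16.2, 8.36 and 22.2 CPM in the midbrain (log2 fold change 1.54, SE 0.22, adjusted p = 0.00238; adjusted p = 0.17 without the block). Calcr, the calcitonin receptor gene, was at 11.7, 4.19 and 3.98 CPM in the hypothalamus and 1.93, 1.21 and 0.518 CPM in the midbrain (log2 fold change 2.43, SE 0.39, adjusted p = 0.00429), and was not called without replicate 1 (adjusted p = 0.0552) or the block (adjusted p = 0.135). Mc4r, the melanocortin receptor gene of appetite circuits, was at 1.35, 0.471 and 0.163 CPM in the hypothalamus and 3.91, 2.35 and 1.31 CPM in the midbrain (log2 fold change -2.24, SE 0.60, adjusted p = 0.0442). Mc4r was not called without replicate 1, 2 or 3 (adjusted p = 0.139, 0.16 and 0.122) or without the block (adjusted p = 0.371). Pgr, the progesterone receptor gene, was at 82.2, 87 and 84.2 CPM in the hypothalamus and 68.2, 73.1 and 66.3 CPM in the midbrain and did not pass (adjusted p = 0.149).

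Other neuropeptide receptors were called in 8 of 40 tested members, 2 higher and 6 lower. Cckar, a cholecystokinin receptor gene, was at 7.09, 5.97 and 8.59 CPM in the hypothalamus and 1.26, 0.633 and 1.74 CPM in the midbrain (log2 fold change 2.66, SE 0.36, adjusted p = 0.00201), and was the 1 member that passed without the block. Pth2r, the receptor gene for a parathyroid-related peptide, was at 1.27, 0.332 and 0.236 CPM in the hypothalamus and 7.29, 2.46 and 2.26 CPM in the midbrain (log2 fold change -2.86, SE 0.49, adjusted p = 0.00639), and was not called without replicate 1 (adjusted p = 0.0618) or the block (adjusted p = 0.19). Lower calls numbered 0, 2 and 2 and higher calls 2, 1 and 3 without replicates 1, 2 and 3.

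Monoamine and acetylcholine receptors were higher in 3 of 37 tested members and lower in 8. Chrm5, a muscarinic receptor gene, was at 19.2, 14.7 and 10.4 CPM in the hypothalamus and 2.79, 1.68 and 1.93 CPM in the midbrain (log2 fold change 2.78, SE 0.27, adjusted p = 3.85e-04). Htr2a, a serotonin receptor gene, was at 20.8, 20.7 and 17.5 CPM in the hypothalamus and 7.87, 7.93 and 7.11 CPM in the midbrain (log2 fold change 1.36, SE 0.20, adjusted p = 0.00264), while its relative Htr2c was at 57.9, 19.3 and 40.4 CPM in the hypothalamus and 172, 112 and 103 CPM in the midbrain (log2 fold change -1.81, SE 0.21, adjusted p = 8.43e-04). Subunit genes of nicotinic receptors were among the lower members. Chrnb4 was at 0.303, 0.157 and 0.0908 CPM in the hypothalamus and 2.59, 4.02 and 3.13 CPM in the midbrain (log2 fold change -4.22, SE 0.68, adjusted p = 0.0046) and Chrna4 at 58.5, 22.3 and 51.2 CPM in the hypothalamus and 266, 118 and 185 CPM in the midbrain (log2 fold change -2.14, SE 0.13, adjusted p = 2.83e-05). Chrna3 was at 5.21, 0.908 and 2.52 CPM in the hypothalamus and 10.9, 11.5 and 7.25 CPM in the midbrain (log2 fold change -2.02, SE 0.48, adjusted p = 0.0272) and was not called without replicate 2 (adjusted p = 0.0649). Chrm5, Htr2a and Chrnb4 passed without the block; Htr2c, Chrna4 and Chrna3 did not (adjusted p = 0.0925, 0.0594 and 0.233).

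Of the tested transmitter genes 16.7% (glutamate list), 25% (GABA and glycine) and 23.1% (monoaminergic and cholinergic) were called, against 11.2% of all genes tested. Glutamate transport and supply had 2 of 12 tested members lower and none higher, Slc17a6 itself and Slc1a1, the neuronal glutamate uptake gene, at 126, 21.2 and 46 CPM in the hypothalamus and 158, 98.4 and 103 CPM in the midbrain (log2 fold change -1.23, SE 0.30, adjusted p = 0.0343). Slc1a1 was not called without replicate 2 (adjusted p = 0.0582), replicate 3 (adjusted p = 0.0843) or the block (adjusted p = 0.597), nor with no filter on low counts (adjusted p = 0.316) or with DESeq2 (adjusted p = 0.0923). The glutamate list had 4, 0 and 0 lower members without replicates 1, 2 and 3. Of 8 GABA and glycine genes 2 were higher, Abat, which breaks GABA down, at 68.9, 81.6 and 74.8 CPM in the hypothalamus and 47, 59.1 and 46.5 CPM in the midbrain (log2 fold change 0.57, SE 0.12, adjusted p = 0.018), and Gad1, which makes it. Gad1 was at 20.5, 19.9 and 15.4 CPM in the hypothalamus and 9.05, 14.6 and 8.81 CPM in the midbrain (log2 fold change 0.81, SE 0.21, adjusted p = 0.0407). Neither passed without the block (adjusted p = 0.203 and 0.266), Gad1 was not called without replicate 1, 2 or 3 (adjusted p = 0.194, 0.0617 and 0.112), and Abat was not called without replicate 2 or 3 (adjusted p = 0.0555 and 0.103). Gad2, the other synthesis gene, was at 87.9, 117 and 281 CPM in the hypothalamus and 46.2, 135 and 74.2 CPM in the midbrain, with the hypothalamic replicate 3 library highest, and did not pass (adjusted p = 0.204), but was called without replicate 2 (log2 fold change 1.43, adjusted p = 0.00675). Among 13 monoaminergic and cholinergic markers 2 were higher and 1 lower, and none passed without the block. Without replicates 1, 2 and 3 there were 2, 1 and 1 higher and 1, 0 and 1 lower. Ddc, the decarboxylase that makes dopamine and serotonin, was at 20, 21.4 and 10.1 CPM in the hypothalamus and 6.94, 8.17 and 3.73 CPM in the midbrain (log2 fold change 1.45, SE 0.21, adjusted p = 0.00266; adjusted p = 0.157 without the block), while Th, the tyrosine hydroxylase gene, was at 9.73, 13.4 and 7.03 CPM in the hypothalamus and 5.8, 12.8 and 5.03 CPM in the midbrain and did not pass (adjusted p = 0.33).

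Ionotropic glutamate receptor subunits were lower in the hypothalamus in 10 of 18 tested members and higher in none (median -0.96). Gria3 and Gria4, AMPA receptor subunit genes, were at 82.4, 36.7 and 47.3 CPM in the hypothalamus and 141, 145 and 124 CPM in the midbrain for the first (log2 fold change -1.38, SE 0.20, adjusted p = 0.00247) and 63.9, 31.2 and 51.6 CPM in the hypothalamus and 104, 88.6 and 89.7 CPM in the midbrain for the second (log2 fold change -1.0002, SE 0.17, adjusted p = 0.0054). Grik3, a kainate receptor subunit gene, was at 82.4, 18.1 and 26.5 CPM in the hypothalamus and 157, 72.1 and 47.9 CPM in the midbrain (log2 fold change -1.25, SE 0.21, adjusted p = 0.00587). Grin2c, an NMDA receptor subunit gene, was at 0.626, 0 and 0.963 CPM in the hypothalamus and 8.45, 2.75 and 4.5 CPM in the midbrain (log2 fold change -3.86, SE 0.86, adjusted p = 0.0209), and was not called without replicate 1 (adjusted p = 0.093); without replicate 3 its log2 fold change was -4.91. The Gria3 and Gria4 libraries of the regions did not overlap, whereas those of Grik3 did. Lower calls numbered 9, 5 and 6 without replicates 1, 2 and 3. None of the 10 passed without the block, and Gria3, Gria4, Grik3 and Grin2c gave adjusted p = 0.0879, 0.161, 0.529 and 0.255.

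Metabotropic glutamate receptors were called in 6 of 7 members, 5 lower and 1 higher. The lower ones numbered 5, 2 and 2 without replicates 1, 2 and 3. Grm3 was at 5.57, 1.38 and 5.59 CPM in the hypothalamus and 18.8, 16.4 and 13.7 CPM in the midbrain (log2 fold change -2.16, SE 0.41, adjusted p = 0.0103) and Grm5 at 71.5, 29.2 and 54.5 CPM in the hypothalamus and 137, 98.6 and 75.2 CPM in the midbrain (log2 fold change -1.05, SE 0.21, adjusted p = 0.0135). The higher member was Grm2, an inhibitory presynaptic receptor gene, at 120.4, 41.5 and 48 CPM in the hypothalamus and 34.4, 11.7 and 30.2 CPM in the midbrain (log2 fold change 1.44, SE 0.23, adjusted p = 0.00392). GABA and glycine receptor subunits were lower in 10 of 23 tested members and higher in 1, with 10, 6 and 10 lower without replicates 1, 2 and 3. Glra1, a glycine receptor gene, was at 5.88, 5.25 and 5.52 CPM in the hypothalamus and 17.9, 14.5 and 14.9 CPM in the midbrain (log2 fold change -1.50, SE 0.22, adjusted p = 0.00265). The higher member was Gabrq, the theta subunit gene, at 100.2, 25.8 and 25.2 CPM in the hypothalamus and 26.2, 21.1 and 9.97 CPM in the midbrain (log2 fold change 1.19, SE 0.27, adjusted p = 0.0236), which was not called without replicate 1 (adjusted p = 0.134) or 3 (adjusted p = 0.0758). Of these receptor genes Glra1 alone passed without the block; Grm3, Grm5, Grm2 and Gabrq gave adjusted p = 0.131, 0.264, 0.266 and 0.373.

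Potassium channel genes were lower in 22 of 66 tested members and higher in 3 (median -0.54). Kcna1, a channel gene of axons, was at 66.4, 39.1 and 56.2 CPM in the hypothalamus and 201, 167 and 159 CPM in the midbrain (log2 fold change -1.73, SE 0.14, adjusted p = 1.21e-04). Kcnc2, a channel gene of fast-spiking neurons, was at 75.9, 48.1 and 122 CPM in the hypothalamus and 286, 212 and 268 CPM in the midbrain (log2 fold change -1.73, SE 0.18, adjusted p = 4.71e-04). The groups did not overlap for either gene. Sodium, calcium and HCN channel genes were lower in 14 of 42 tested members and higher in 3 (median -0.33). Scn4b, an auxiliary sodium channel subunit of fast-firing neurons, was at 6.39, 4.36 and 4.21 CPM in the hypothalamus and 59.1, 33.1 and 36.1 CPM in the midbrain (log2 fold change -3.08, SE 0.18, adjusted p = 2.11e-05). Without the block 2 potassium channel genes, including Kcna1, and 1 gene of the second list, Scn4b, were lower and none of either list was higher. Kcnc2 gave adjusted p = 0.0604. Lower potassium channel calls numbered 19, 12 and 17 without replicates 1, 2 and 3.

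Calcium-binding protein genes split, 5 higher and 4 lower of 20 tested, and 2, 2 and 5 lower without replicates 1, 2 and 3. Calb1, the calbindin gene, was at 292, 308 and 283 CPM in the hypothalamus and 101, 111 and 156 CPM in the midbrain (log2 fold change 1.29, SE 0.14, adjusted p = 6.19e-04). Ncald, a neuronal calcium sensor gene, was at 538, 657 and 665 CPM in the hypothalamus and 343, 372 and 459.6 CPM in the midbrain (log2 fold change 0.67, SE 0.09, adjusted p = 0.00182), and Necab3 was at 100.5, 61.8 and 68.4 CPM in the hypothalamus and 176, 104 and 138 CPM in the midbrain (log2 fold change -0.86, SE 0.11, adjusted p = 0.00162). The regions did not overlap in any of the 3 genes. Calb1 was the 1 member that passed without the block, and Ncald and Necab3 gave adjusted p = 0.119 and 0.197. Axon cytoskeleton genes had 2 higher and 4 lower of 19, none of them without the block. Without replicates 1, 2 and 3 the counts were 1, 0 and 2 higher and 4, 1 and 2 lower. Nefm, the medium neurofilament gene, was at 126, 190.3 and 164 CPM in the hypothalamus and 169, 311 and 310.3 CPM in the midbrain (log2 fold change -0.68, SE 0.11, adjusted p = 0.00523; adjusted p = 0.3 without the block).

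Axon guidance genes had 7 higher and 14 lower of 52 tested, with 10, 9 and 13 lower without replicates 1, 2 and 3. The neuropilin genes Nrp1 and Nrp2, receptors for secreted semaphorins, were higher. Nrp2 was at 198, 64 and 64 CPM in the hypothalamus and 44.4, 19.5 and 14.1 CPM in the midbrain (log2 fold change 2.02, SE 0.14, adjusted p = 6.04e-05) and Nrp1 at 91, 26.1 and 22.6 CPM in the hypothalamus and 20.8, 12.4 and 10.1 CPM in the midbrain (log2 fold change 1.46, SE 0.22, adjusted p = 0.00346). Efnb3, an ephrin gene, was at 126, 62.3 and 65 CPM in the hypothalamus and 32.9, 29.2 and 30.7 CPM in the midbrain (log2 fold change 1.37, SE 0.18, adjusted p = 0.00182). The replicate 1 hypothalamus library was the highest for all 3 genes. On the lower side Sema6a, a membrane semaphorin gene, was at 97.6, 29 and 44.8 CPM in the hypothalamus and 180.3, 125 and 150.2 CPM in the midbrain (log2 fold change -1.58, SE 0.21, adjusted p = 0.00161). None of the 21 called guidance genes passed without the block, and Nrp2, Nrp1, Efnb3 and Sema6a gave adjusted p = 0.163, 0.239, 0.061 and 0.182.

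Cadherins and protocadherins had 3 higher and 7 lower of 26 tested, with 7, 4 and 8 lower without replicates 1, 2 and 3. Pcdh20 was at 51.2, 28.6 and 21.2 CPM in the hypothalamus and 8.99, 7 and 7.58 CPM in the midbrain (log2 fold change 2.01, SE 0.23, adjusted p = 7.77e-04) and was the 1 member that passed without the block. Cdh24, a cell adhesion gene, was at 2.88, 2.27 and 1.82 CPM in the hypothalamus and 13.7, 6.46 and 6.36 CPM in the midbrain (log2 fold change -1.86, SE 0.31, adjusted p = 0.00505; adjusted p = 0.0764 without the block). These adhesion genes were thus called on both sides.

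Lists of general cell function differed in their share of calls. None of 32 ribosomal protein genes and none of 24 nuclear genes of oxidative phosphorylation passed, with medians of 0.17 and -0.01. In the edgeR fit 2 of the former and 1 of the latter had an unadjusted p under 0.05, and DESeq2 called 0 and 0. Of 15 general neuron markers 1 was higher and 3 lower (26.7%, against 11.2% of all genes tested), and none passed without the block. Leaving out any 1 replicate gave 0 higher ones, and 5, 3 and 3 lower. Snap25, a vesicle fusion gene, was at 10191, 15610.5 and 16710.3 CPM in the hypothalamus and 14376, 20629.6 and 22118 CPM in the midbrain (log2 fold change -0.43, SE 0.06, adjusted p = 0.00195; adjusted p = 0.509 without the block). Immediate early genes, which respond to neuronal activity, had 3 higher and 2 lower of 16 (31.2%). Without replicates 1, 2 and 3 there were 1, 1 and 2 higher and 1, 1 and 2 lower. Egr3 was at 10.7, 8.78 and 12.2 CPM in the hypothalamus and 30.3, 34 and 24.3 CPM in the midbrain (log2 fold change -1.48, SE 0.22, adjusted p = 0.00274), and was the 1 member that passed without the block. Jun was at 58, 70.2 and 57.3 CPM in the hypothalamus and 24.4, 29.5 and 46.7 CPM in the midbrain (log2 fold change 0.93, SE 0.20, adjusted p = 0.0172), and was not called without replicate 1 (adjusted p = 0.0756), replicate 2 (adjusted p = 0.0927) or the block (adjusted p = 0.184).

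Markers of other cell types were measured beside these results. Oligodendrocyte markers were lower in 10 of 16 tested members and higher in none (median -1.74), with a summed level of 199 to 239 CPM in the hypothalamus and 372 to 561 CPM in the midbrain, and 4 of them passed without the block. Without replicates 1, 2 and 3 the lower oligodendrocyte markers numbered 6, 5 and 8. Mbp, the myelin basic protein gene, was at 107, 93.3 and 97 CPM in the hypothalamus and 98, 149.6 and 105 CPM in the midbrain and did not pass (adjusted p = 0.414). In the inputs all 16 were lower in the hypothalamus. Astrocyte markers had 3 of 16 lower and none higher, with summed levels of 161 to 208 CPM and 206 to 325 CPM; 3, 1 and 2 were lower without replicates 1, 2 and 3, and 1 without the block. Aqp4, the water channel gene of astrocytes, was at 2.75, 1.69 and 2.2 CPM in the hypothalamus and 8.25, 10.2 and 5.57 CPM in the midbrain (log2 fold change -1.83, SE 0.35, adjusted p = 0.0108; adjusted p = 0.067 without replicate 2 and 0.0589 without the block). Microglia markers had 1 of 10 tested lower. The microglia list summed to 5.2 to 6.21 CPM in the hypothalamus and 11.3 to 16.4 CPM in the midbrain. Of 8 tested endothelial and mural markers 1 was lower. That list summed to 12.7 to 23.8 CPM in the hypothalamus and 16.02 to 30.4 CPM in the midbrain, ranges that overlap. Of ependymal markers 1 of 7 was higher. The shares called in the microglia, endothelial and ependymal lists were 10%, 12.5% and 14.3%, against 11.2% of all genes tested. The single calls of these lists were lost without the block and without any 1 replicate. Of oligodendrocyte precursor markers 2 of 9 were lower, 2, 1 and 1 without replicates 1, 2 and 3 and 1 without the block. Markers of neighbouring brain parts were called on both sides, with 5 higher and 3 lower of 12 telencephalic, 2 higher and 3 lower of 11 cerebellar and 1 higher of 3 hindbrain genes. Without the block there were 1 higher and 2 lower telencephalic, 1 higher and 2 lower cerebellar and 0 hindbrain genes. Higher calls without replicates 1, 2 and 3 numbered 3, 3 and 3 in the telencephalic and 2, 1 and 1 in the cerebellar list. Of 4 tested pituitary and blood transcripts 1 was lower, the homeobox gene Pitx1, which had no hypothalamic count and 1.02, 2.42 and 1.26 CPM in the midbrain libraries (adjusted p = 0.00914, and 0.0351 without the block). None of 5 sex-linked transcripts passed in edgeR, where 0 had an unadjusted p under 0.05, or in DESeq2, which called 0. The part of these cells in the groups that were lower in the hypothalamus was not tested.

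**Figure D4:**
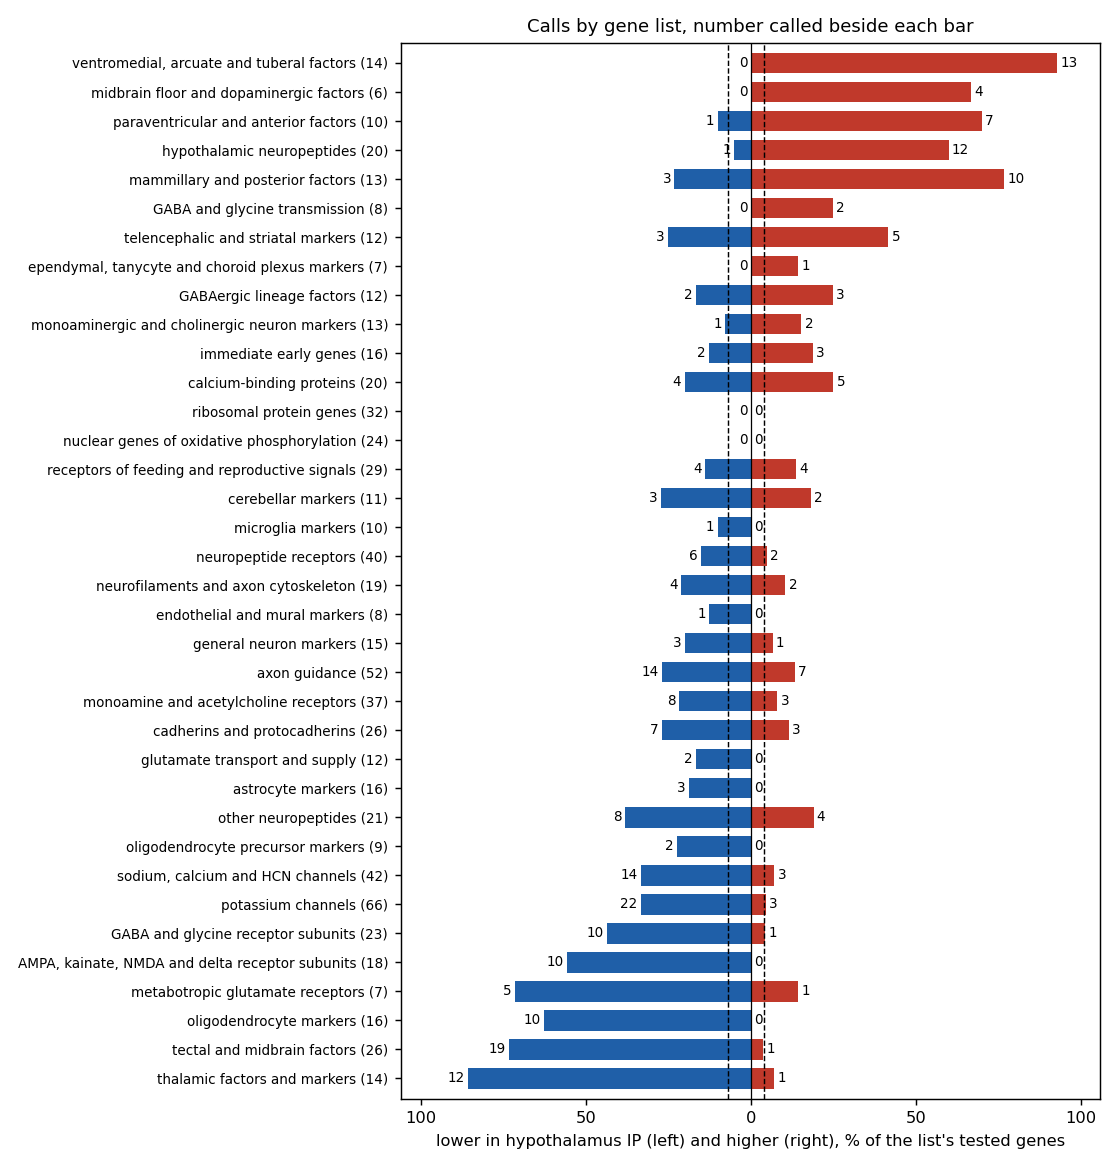
Share of each gene list (y axis) that was higher or lower in the hypothalamus IP (x axis, percent of the members tested), with the number of members tested beside its name and the number called beside each bar. Dashed lines mark the shares of all genes, 6.99% lower and 4.17% higher. The tuberal factor list had 13 of 14 members higher, the tectal list 19 of 26 lower, and the ribosomal protein list none in either direction.

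The same regions were then compared in the inputs, to set the IP difference beside that of whole tissue. The inputs gave 1037 genes higher (5.91%) and 1297 lower (7.39%) of 17561 tested (13.3%), and 220 and 204 without the block. Of the 641 IP-higher genes tested in both fractions, 341 (53.2%) were also input-higher, which is 33.8% of the 1009 input-higher genes. Of 1076 IP-lower genes 563 (52.3%) were input-lower, 44.3% of 1271. The IP and input difference pointed in opposite directions, each past its test, in 14 genes that were higher and 9 that were lower in the IP. A test of the difference between the differences, over all 12 libraries, called 105 of 18128 genes tested (0.579%), 58 (0.32%) with a more positive log2 fold change in the IP and 47 (0.259%) with a more negative one, and 11 and 3 without the block. At an unadjusted p under 0.05 it held 1841 genes, and 82 of the 105 were also called between the regions in the IP.

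That test called 7 genes of the mammillary list, 7 of the tectal list and 2 of the tuberal list. The IP fit had tested 13, 26 and 14 members of these lists. Barhl1, with a more negative value in the IP (difference -3.11), is among the mammillary 7. Foxb1 had a log2 fold change of 5.83 in the IP and 1.38 in the input (difference 4.46, adjusted p = 4.50e-06). Lhx5 had 5.63 in the IP and 0.56 in the input (difference 5.11, adjusted p = 9.80e-05), and Sall3 had 6.68 and 1.77 (difference 4.86, adjusted p = 4.81e-05). The regions were thus further apart in these genes in the IP than in whole tissue. Cartpt had 2.95 in the IP and -0.25 in the input (difference 3.22, adjusted p = 4.81e-05). On the midbrain side Meis2 was at -4.95 in the IP and -0.40 in the input (difference -4.68, adjusted p = 0.0395). Its input difference did not pass (adjusted p = 0.774). Egr3 had a log2 fold change of -1.48 in the IP and 0.92 in the input (difference -2.48, adjusted p = 0.0373), which are opposite directions, each past its test.

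**Figure D5:**
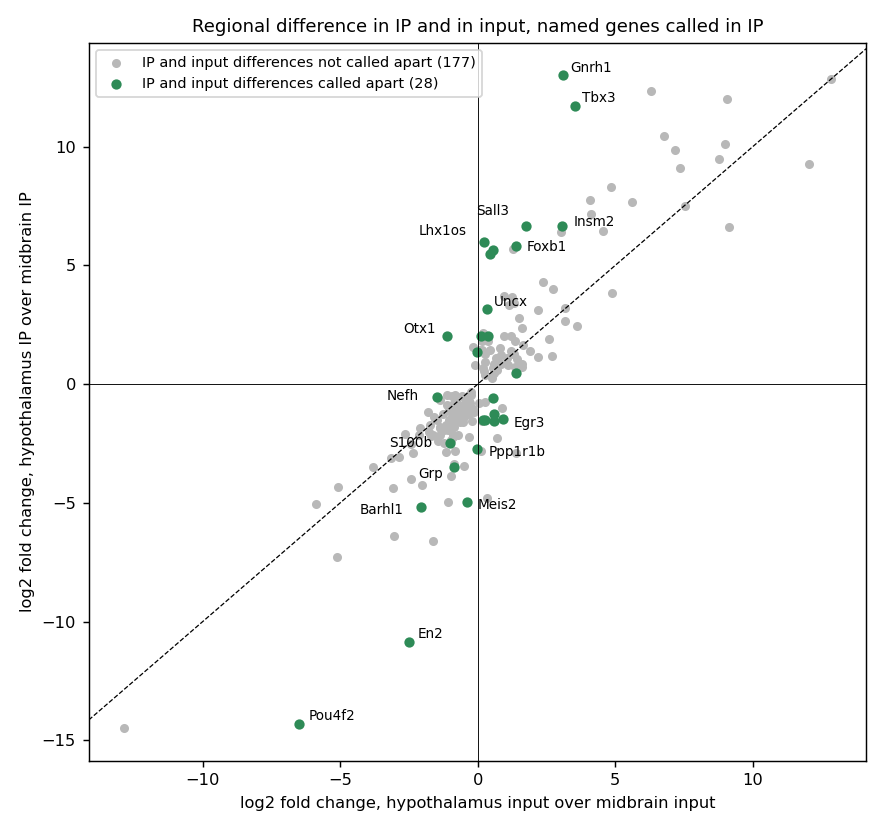
Log2 fold change of hypothalamus over midbrain in the IP (y axis) against that in the input (x axis) for the 205 genes taken by the naming rule (not all are given in the text) that were called in the IP and tested in the input; the dashed line marks equal values. In 28 genes (green) the IP and input values were called apart, among them Foxb1, Sall3 and Meis2.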

How the data were processed

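The authors deposited raw read counts per gene for each library, 1 whole-number count per gene symbol; per the submitters' processing notes reads were aligned with STAR 2.0.0e to mm10 and counted with HTSeq. The strand setting and annotation are not given in the sources used here. Summary entries and the entry named unknown were left out of library sizes and tests; reads in no feature came to 7252911 to 10402779 per IP library.

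Counts of the 6 IP libraries (48274691 to 55148109 per library) were filtered with filterByExpr, scaled with TMM and fitted in edgeR 4.0.16 (R 4.3.3) by the robust quasi-likelihood F test with region and replicate number as terms. Log2 fold changes are hypothalamus over midbrain, each SE was taken from the log2 fold change and its F statistic, and p-values were adjusted by Benjamini-Hochberg over all 15531 genes. The same fit was run on the 6 inputs, and over all 12 libraries for the difference between fractions. The block was chosen because deviations of same-numbered libraries correlated at 0.57, 0.27 and 0.40, those of other pairs at -0.41 to 0.09. Deviations from a group mean cancel within each region, so negative values are partly forced. Whether the numbers mark shared animals or a shared batch was not tested. The scripts were tested on simulated counts.

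Genes named are, on each side, the 15 called genes with the greatest log2 fold change (at least 5 CPM in the higher group, no overlap between groups, predicted genes skipped), Slc17a6, Rpl10a and Rn45s, and up to 6 called (at least 1 CPM) per direction and 3 not called from each list; not all are printed, and genes outside this rule (Npy, Cartpt, Tac2, Pomc and others, and those of the closing part) were chosen after their values were seen. The comparison, the lists and the rule were all chosen with earlier results of these data known. Coordinates are from GENCODE M21 (GRCm38), matched by symbol for 14045 genes (90.4%). Promoter sequences are from RefSeq. Alternatives were no block, other libraries in the fit, scalings and filters, DESeq2 1.42.0, limma 3.58.1 and leaving out replicates. Intervals and floors cover counting error only. Some genes are not reported here.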

Additional observations from a re-analysis of the deposited data

Results flagged for a closer look

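In these genes the regional difference in the IP and that in the input were called apart by a test of the difference itself (edgeR's quasi-likelihood F test, adjusted p under 0.05, all 12 libraries), which called 0.579% of all genes tested. Values are the log2 fold change in the IP minus that in the input, so a positive value means a more positive log2 fold change, hypothalamus over midbrain, in the IP. Among mammillary genes the values were 5.74 for Lhx1os, 5.11 for Lhx5, 5.001 for Lhx1, 4.86 for Sall3, 4.46 for Foxb1 and 2.83 for Uncx. Other positive values among factors were 3.64 for Insm2, 3.24 for Otx1 and 1.71 for Nr4a2. Among peptides Npy had 3.85 and Cartpt 3.22. Smyd1 had 4.76, Bag3 2.91, Hspb8 2.51, Pcdh20 1.89 and Efnb3 1.44.

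Negative values, a more negative log2 fold change in the IP, were -4.68 for Meis2, -3.11 for Barhl1, -1.79 for Barhl2 and -1.13 for Ebf1. Gal had -3.72, Grp -2.59, Egr3 -2.48 and Grik3 -1.75. In 3 of these genes the IP and input differences pointed in opposite directions, each past its test: Otx1 (2.01 and -1.12), Egr3 (-1.48 and 0.92) and Grik3 (-1.25 and 0.58). Gal differed between the fractions although its IP difference did not pass with all replicates (it did without replicate 3, and by DESeq2), with log2 fold changes of 1.15 in the IP and 4.81 in the input.

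Fitted values that rest on an IP group with no count depend on the prior count and are no measure of size: these were 9.93 for Gnrh1, 8.10 for Tbx3, -8.06 for Pou4f2 and -8.46 for En2. Without the block 11 and 3 genes were called in this test.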

How the results depend on the processing

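The replicate block set the number of calls. Without it 112 genes were higher and 84 lower (edgeR), and 66 of the 124 called genes named in the text passed. All 12 libraries in 1 fit without the block gave 372 and 401, and the input and the difference between fractions gave 220 and 204, and 11 and 3. With the block, leaving out 1 replicate pair gave 358 to 491 higher and 565 to 884 lower genes. Leaving out 1 library without the block gave, for replicates 1, 2 and 3, 120, 33 and 95 higher and 195, 16 and 71 lower genes without the hypothalamus library, and 70, 34 and 67 higher and 22, 13 and 45 lower genes without the midbrain library. All other settings kept the counts within 1.5 times: RLE scaling, library size only, no filter, a 1 CPM filter, DESeq2, limma-voom, Rn45s left out and all 12 libraries with the block gave 612 to 962 higher and 952 to 1612 lower genes. Under those 8 settings the called genes named in the text stayed called, except 8 with no filter (Pmch, Isl1, Meis2, Irx2, Lhx9, Prkcd, Slc1a1 and Tnnt1, adjusted p = 0.133, 0.0822, 0.124, 0.241, 0.283, 0.196, 0.316 and 0.0685), Slc1a1 with DESeq2, Mc4r with limma-voom and with all 12 libraries, and 3 that the 1 CPM filter removed. No called gene named in the text changed direction under any of the 19 settings.

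Of genes that were not called, Gad2 passed without replicate 2 (adjusted p = 0.00675), Gal without replicate 3 and by DESeq2 (adjusted p = 0.0362 and 0.0366) and Nr0b1 by DESeq2 (adjusted p = 0.0175). Mbp gave log2 fold changes of -0.41 to 0.0014 without 1 replicate pair, and Rpl10a turned to 0.11 without hypothalamus IP replicate 1 and the block. The cause of these shifts was not tested. A gene with no count in an IP library could lie at up to 3 counts, 0.0544 to 0.0621 CPM of the raw library total. A difference below that level was not detectable.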

Other observations

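Genes outside the lists, named here after their values were seen, were also called between the regions. On the hypothalamic side Smyd1, a histone methyltransferase gene known from muscle, was at 81.2, 101 and 57.9 CPM in the hypothalamus and 4.19, 4.88 and 2.84 CPM in the midbrain (log2 fold change 4.33, SE 0.16, adjusted p = 1.03e-06). The chaperone pair Bag3 and Hspb8, whose products act together in clearing misfolded protein, had log2 fold changes of 3.01 and 2.98 (adjusted p = 1.21e-04 and 6.54e-05). Irs4, an X-linked insulin receptor substrate gene, was at 122, 178 and 131 CPM in the hypothalamus and 9.69, 12.1 and 17.3 CPM in the midbrain (log2 fold change 3.48, SE 0.19, adjusted p = 1.79e-05). The imprinted genes Peg10, Nnat and Zim1 were higher by log2 values of 2.14, 1.73 and 1.74 (adjusted p = 9.39e-06, 1.66e-05 and 1.39e-04), beside Peg3 above. Smyd1, Irs4 and Nnat are overlapped by genes on the opposite strand and Bag3 by one on its own strand, so their reads may include reads of those genes. The orphan receptor genes Gpr101 and Gpr83 were higher by 2.60 and 2.61 (adjusted p = 5.66e-04 and 0.00201), and neither passed without the block (adjusted p = 0.0638 and 0.161).

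On the midbrain side several genes of synaptic signalling were lower in the hypothalamus. Nrgn, which encodes the postsynaptic calmodulin binder neurogranin, was at 79.1, 58.8 and 60.3 CPM in the hypothalamus and 368, 389 and 178 CPM in the midbrain (log2 fold change -2.17, SE 0.19, adjusted p = 2.04e-04). Adcy1, a calmodulin-stimulated adenylyl cyclase gene, was at 51.3, 27.6 and 78.6 CPM in the hypothalamus and 242, 174 and 257 CPM in the midbrain (log2 fold change -2.20, SE 0.17, adjusted p = 1.02e-04). Cplx1 and Syt2, which encode the release proteins complexin and synaptotagmin, had log2 fold changes of -1.68 and -2.33 (adjusted p = 1.13e-05 and 0.00305). Nrxn3, a presynaptic adhesion gene, had -1.56 (adjusted p = 7.89e-05). Without the block the adjusted p values of Nrgn, Adcy1, Cplx1, Syt2 and Nrxn3 were 0.017, 0.0433, 0.00305, 0.106 and 0.0157.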
